A study of Homo sapiens with 12 samples.

Results

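The mitochondrial chaperones and proteases described here are 10 genes, taken as the rows of the deposited count table whose symbol is HSPD1, HSPE1, HSPA9, DNAJA3, TRAP1, LONP1, CLPP, CLPX, YME1L1 or HTRA2. They are 10 of the 22545 genes in the table, and all 10 were among the 14207 genes that passed the filter on low counts and were tested. RNA was sequenced from HaCaT, a spontaneously immortalised line of human keratinocytes, in 12 libraries that fall into 4 groups of 3. One group received M5 with lefamulin (M5+lefamulin), one M5 with retapamulin (M5+retapamulin), one M5 alone, and one was untreated (labelled WT). The genotype is given as WT for every library, so all 4 groups share it. M5 commonly denotes a cocktail of inflammatory cytokines that makes cultured keratinocytes resemble psoriatic ones; the labels state neither what it held here nor any dose, time or solvent. Both compounds are antibiotics of the pleuromutilin class, which bind the bacterial ribosome; they carry different side chains on the same tricyclic core. Because both compound groups also received M5, each compound was set against M5 alone, and no group shows a compound without M5.

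Each library held 35110519 to 37520999 counts over 17009 to 17955 genes with at least 1 count. The labels name HaCaT keratinocytes as the source, while the extraction text attached to every sample speaks of mouse epidermis; the 2 statements cannot both hold, and the source label was used. Summed over 6 keratinocyte markers, levels ran over 2245 to 2275 CPM in M5+lefamulin libraries, 2336 to 2345 CPM in M5+retapamulin libraries, 1991 to 2074 CPM in M5 libraries and 2835 to 2922 CPM in untreated libraries (CPM, counts divided by TMM-scaled library sizes). Among these markers KRT14, the basal keratin, was low in every library, at 0.413 to 9.02 CPM. The 3 endothelial markers summed to 118 to 123 CPM in M5+lefamulin libraries, 99.8 to 115 CPM in M5+retapamulin libraries, 117 to 122 CPM in M5 libraries and 14.6 to 16.7 CPM in untreated libraries, most of it CDH5, while PECAM1 was at 0 in 6 libraries and at or under 0.0301 CPM in the rest. The 4 fibroblast markers summed to 15.04 to 16.9 CPM with M5+lefamulin, 9.04 to 11.1 CPM with M5+retapamulin, 5.25 to 6.68 CPM with M5 and 7.10 to 7.94 CPM in untreated libraries. Most of this was COL1A1, at 5.17 to 16.9 CPM over all libraries, while COL3A1 was at or under 0.0275 CPM. The 4 immune markers summed to 1.47 to 1.84 CPM in M5 libraries and to at most 0.480 CPM in any other library. Among them CD14 was at 0.0590 to 1.79 CPM and PTPRC at or under 0.0301 CPM. The 2 melanocyte markers measured summed to at most 2.33 CPM. The part of these differences in the results was not tested. In bulk RNA, fewer cells that use a gene and less of its RNA per cell cannot be told apart. Nothing in the labels says that the 3 libraries of a group came from separate cultures, so the p-values measure the spread between these libraries, which may be technical.

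As background, nearly all mitochondrial proteins are made in the cytosol, and those bound for the matrix are pulled unfolded through the import channels into it. There the Hsp70 mortalin (HSPA9) with its J-protein DNAJA3 receives them, and the Hsp60 chamber (HSPD1) with its lid Hsp10 (HSPE1) folds them; TRAP1 is the mitochondrial member of the Hsp90 family. Proteins that fail to fold are degraded by LONP1 and by the ClpXP complex in the matrix, by YME1L1 at the inner membrane, and by HTRA2 in the space between the membranes. When unfolded protein builds up in the organelle, cells raise nuclear transcripts of such genes, a programme known as the mitochondrial unfolded protein response, in which ATF4, DDIT3 (CHOP) and ATF5 take part.

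Levels of different genes were compared only per length, on the deposited FPKM values (fragments scaled to gene length and to the library total). By this measure HSPD1 was the highest of the 10 genes in all 4 groups, at 218 ± 3.36 FPKM in M5+lefamulin cells, 216 ± 3.04 FPKM in M5+retapamulin cells, 440.0 ± 2.75 FPKM in M5 cells and 411 ± 7.03 FPKM in untreated cells (SD, n = 3 each). HSPA9 came second in every group, at 73.8 ± 2.74 FPKM in M5+lefamulin cells, 77.1 ± 2.36 FPKM in M5+retapamulin cells, 105 ± 2.49 FPKM in M5 cells and 97.7 ± 2.00 FPKM in untreated cells. HTRA2 was the lowest everywhere, between 7.73 ± 0.372 FPKM in M5+retapamulin cells and 8.71 ± 0.543 FPKM in M5+lefamulin cells. CLPX and DNAJA3 came next in rank in every group, at 15.9 ± 0.442 and 28.2 ± 1.35 FPKM in untreated cells. The middle of the order changed with the compounds. YME1L1 took rank 3 in both compound groups but rank 5 with M5 alone and in untreated cells, whereas TRAP1 took rank 3 with M5 alone and in untreated cells, rank 5 with M5+lefamulin and rank 6 with M5+retapamulin. Summed over the 10 genes, FPKM came to 551 ± 5.46 in M5+lefamulin cells, 533 ± 7.82 in M5+retapamulin cells, 888 ± 3.11 in M5 cells and 842 ± 4.57 in untreated cells. HSPD1 alone made up 39.5% ± 0.493 of that sum in M5+lefamulin cells, 40.5% ± 0.213 in M5+retapamulin cells, 49.5% ± 0.326 in M5 cells and 48.8% ± 0.818 in untreated cells.

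**Figure D1:**
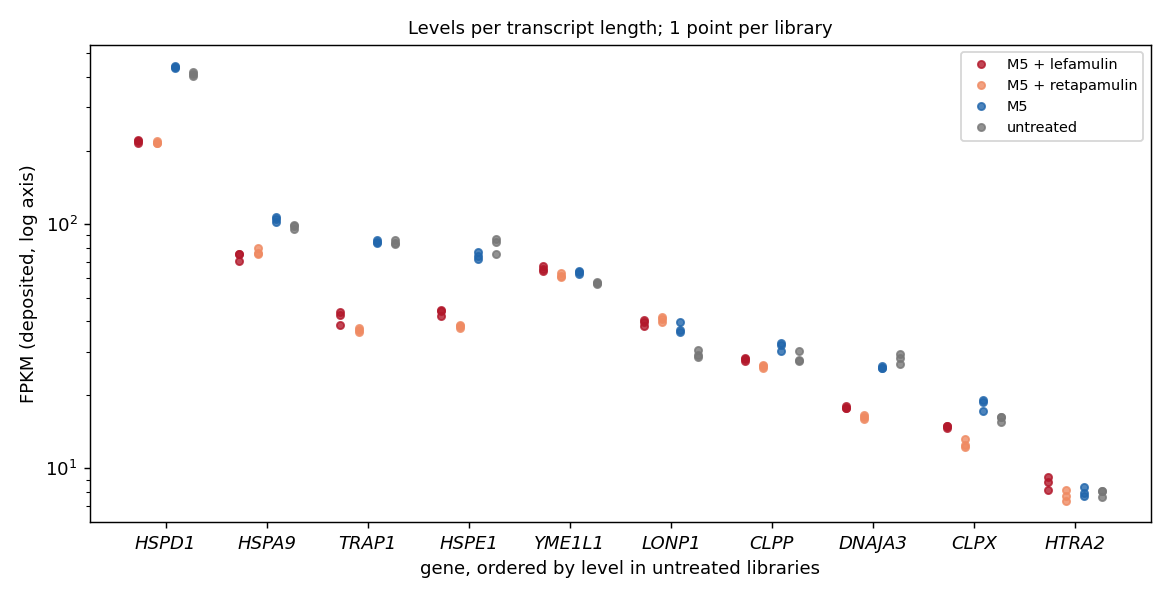
Deposited FPKM (log axis) of the 10 genes, ordered by their level in untreated libraries, with 1 point per library in each of the 4 groups. HSPD1 stands above the other 9 genes in every library and HTRA2 is lowest in each group.

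Within a gene, the groups were compared with edgeR's quasi-likelihood test on the counts, with Benjamini-Hochberg adjustment over all 14207 genes tested; a gene is called where the adjusted p is under 0.05, and fold changes are log2 values with their standard error (SE). Against untreated cells, M5 raised 7 of the 10 genes and lowered none, where 28.3% of all genes tested were called higher, 26.9% lower and 55.2% in either direction. The 7 were HSPD1, HSPA9, TRAP1, LONP1, CLPP, CLPX and YME1L1, with log2 changes of 0.13 to 0.47. The median log2 change of the 10 genes was 0.22, beside -0.02 over all genes tested, and the libraries of the 2 groups did not overlap for 8 of the 10 genes, beside 59.2% of all genes. Scaled to library totals alone, where the median of all genes moves to -0.14, 6 genes were higher and 2 lower: HSPE1 and DNAJA3 were then called lower and TRAP1 was not called. On that scale 8498 of the 14207 genes tested were called, 31.5% of them higher.

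Adding either compound to M5 lowered all 5 chaperone genes and both ClpXP genes, while LONP1 and YME1L1 were higher. With lefamulin all 10 genes were called against M5 alone, 7 lower and 3 higher, where 34.3% of all genes tested were called lower, 33.6% higher and 67.9% either way. With retapamulin 9 of the 10 were called, 7 lower and 2 higher, where 38.0% of all genes were called lower, 34.1% higher and 72.1% either way. The 7 lower genes were the same ones with both compounds: the 5 chaperone genes HSPD1, HSPE1, HSPA9, DNAJA3 and TRAP1, and both subunits of ClpXP, CLPP and CLPX. HTRA2 was called higher with lefamulin only, a difference between the compounds that did not pass its own test (adjusted p = 0.333). On library totals alone LONP1, YME1L1 and HTRA2 were no longer called with lefamulin, and with retapamulin YME1L1 and HTRA2 changed sign, so that of the rises only that of LONP1 with retapamulin was called on that scale. The median log2 change of the 10 genes was -0.36 with lefamulin, beside -0.00 over all genes, and -0.35 with retapamulin, beside -0.05 over all genes. Libraries did not overlap for 9 of the 10 genes in each of these comparisons, beside 71.2% of all genes with lefamulin and 73.8% with retapamulin. Both comparisons use the same 3 M5 libraries, so their likeness is not independent.

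**Figure D2:**
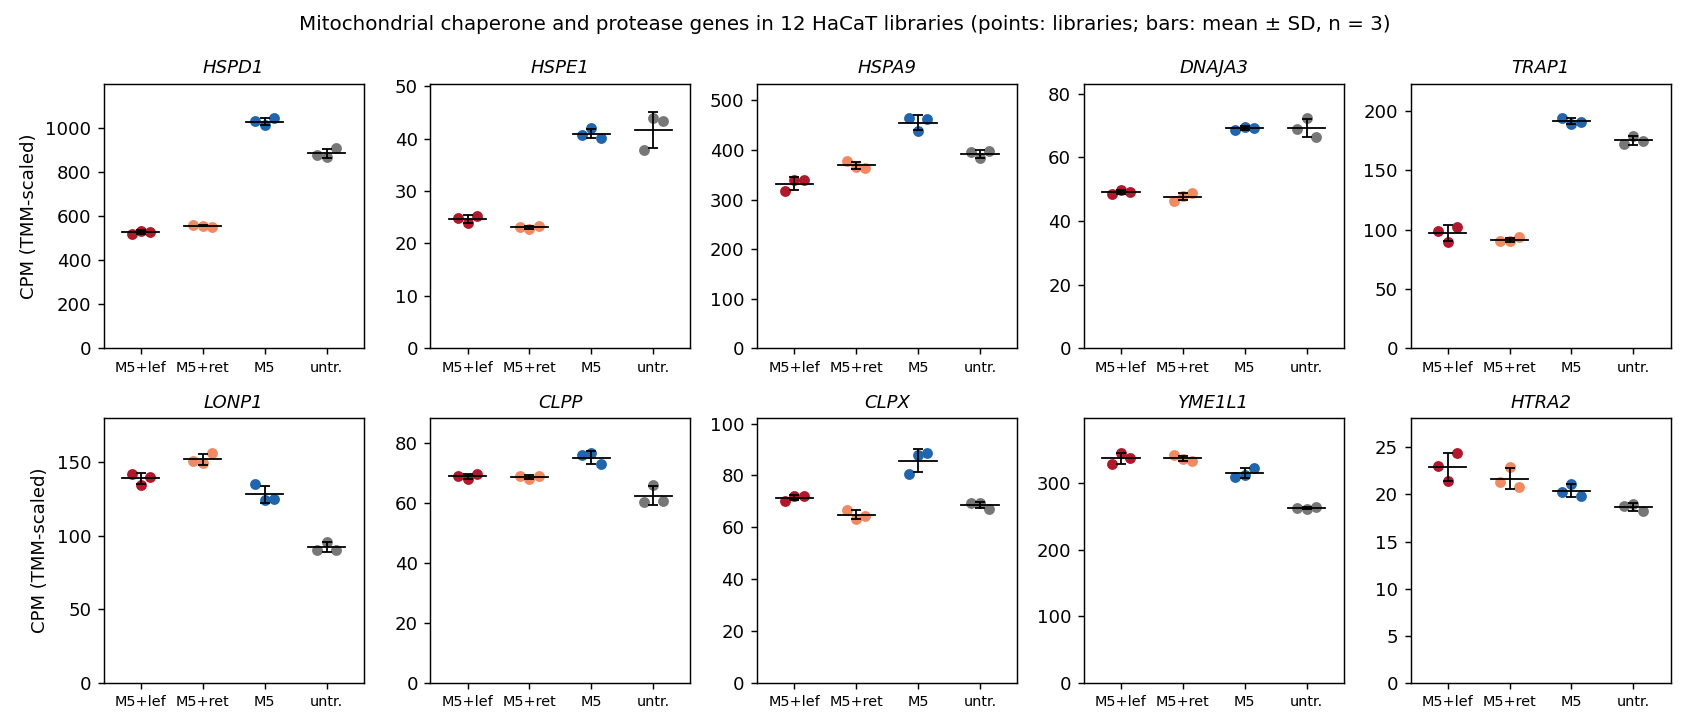
CPM (TMM-scaled) of each of the 10 genes in the 12 libraries, with points for libraries and bars for the mean ± SD of 3; M5+lef, M5+ret and untr. stand for M5+lefamulin, M5+retapamulin and untreated, and each panel has its own linear axis from 0. The chaperones in the top row are lower in both compound groups than with M5 alone, while LONP1, CLPP, YME1L1 and HTRA2 have their lowest mean in untreated cells.

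**Figure D3:**
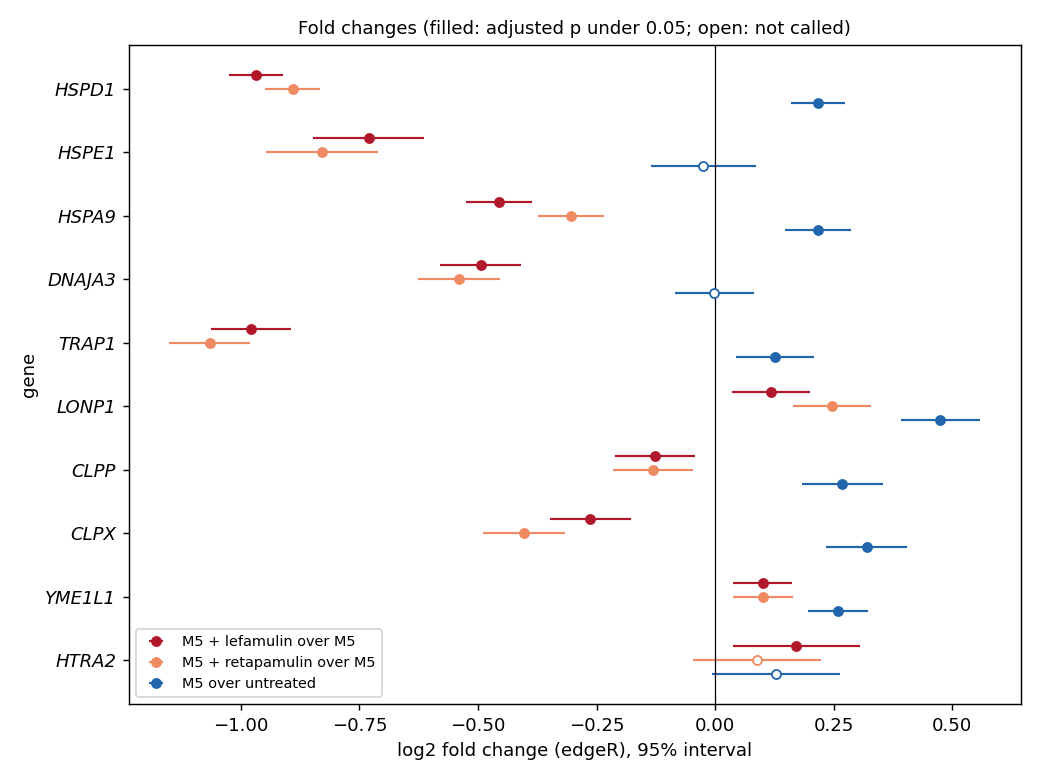
Log2 fold changes of the 10 genes from edgeR with 95% intervals, for M5+lefamulin over M5, M5+retapamulin over M5 and M5 over untreated cells; filled points have an adjusted p under 0.05. HSPD1, HSPE1 and TRAP1 lie between -1.07 and -0.73 with either compound. LONP1, YME1L1 and HTRA2 lie above 0 in all 3 comparisons, HTRA2 with a filled point for lefamulin only.

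The promoter windows of HSPD1 and HSPE1 are shown first because these genes fell together with both compounds and lie head to head, and that of LONP1 because it moved the other way. Sequences are RefSeq windows on GRCh38.p14 that run from 250 bases before to 50 bases after an annotated start, given 5′ to 3′ on the strand of the gene; 8 of the 10 genes have such a window. Capitals mark heat shock elements (GAANNTTC or TTCNNGAA), E-boxes (CACGTG) and NRF1 cores (GCGCANGCG or its reverse complement) found by a search of both strands. The HSPD1 window printed here belongs to a start 539 bases from the HSPE1 start and shares 0 bases with the HSPE1 window. A second HSPD1 window, not printed, belongs to a start 105 bases from the HSPE1 start and shares 204 bases with the HSPE1 window. The HSPD1 window at chr2:197499791-197500090 (minus strand), the HSPE1 window at chr2:197500129-197500428 (plus strand) and the LONP1 window at chr19:5720097-5720396 (minus strand) read as follows.
HSPD1: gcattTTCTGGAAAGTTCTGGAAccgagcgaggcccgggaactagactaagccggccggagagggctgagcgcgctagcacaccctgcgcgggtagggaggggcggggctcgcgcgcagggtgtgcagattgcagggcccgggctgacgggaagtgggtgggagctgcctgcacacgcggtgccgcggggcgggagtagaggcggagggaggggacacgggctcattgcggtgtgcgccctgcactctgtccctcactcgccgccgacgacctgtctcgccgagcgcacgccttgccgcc
HSPE1: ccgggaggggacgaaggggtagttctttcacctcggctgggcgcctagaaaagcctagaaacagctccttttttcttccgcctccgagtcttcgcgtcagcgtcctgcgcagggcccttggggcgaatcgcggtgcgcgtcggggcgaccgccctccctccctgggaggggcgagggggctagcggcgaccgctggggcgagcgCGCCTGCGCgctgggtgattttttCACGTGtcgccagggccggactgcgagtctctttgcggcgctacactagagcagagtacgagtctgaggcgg
LONP1: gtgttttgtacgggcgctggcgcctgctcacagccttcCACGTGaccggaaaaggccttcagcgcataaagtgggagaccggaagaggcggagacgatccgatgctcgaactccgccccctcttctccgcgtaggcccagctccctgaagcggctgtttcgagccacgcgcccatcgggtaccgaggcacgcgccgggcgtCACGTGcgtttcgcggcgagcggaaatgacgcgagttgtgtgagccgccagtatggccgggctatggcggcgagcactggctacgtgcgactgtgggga

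In the HSPD1 window, 2 copies of TTCTGGAA begin 245 and 235 bases before the start, and GAAAGTTC, which overlaps both, begins 240 bases before it. Of 34943 RefSeq promoter windows of the same length, 6.79% hold GAANNTTC and 7.74% hold TTCNNGAA. The HSPE1 window holds an NRF1 core 46 bases and an E-box 22 bases before its start; a second annotated HSPD1 start lies at position 146 of this window on the opposite strand, 105 bases from the HSPE1 start, so both motifs lie between the diverging starts. The LONP1 window holds E-boxes 212 and 49 bases before its start. A second LONP1 window, at another annotated start, holds the letters GCGCATGCGC and no E-box. These letters match the NRF1 core once on each strand, in overlapping matches that begin 200 and 199 bases before that start. Of the other genes that fell, HSPA9 has an E-box 19 and a heat shock element 4 bases before its start. DNAJA3 and CLPX have NRF1 cores but no E-box or heat shock element, and TRAP1 has none of these motifs. Any part of the motifs in the changes was not tested. E-boxes were found in 7.23% and NRF1 cores in 7.44% of all windows. TGATGNAA, the composite element of ATF4 and CHOP, was in none of the 11 windows of these genes and in 3.62% of all windows, which says only that these letters are not in these windows.

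HSPD1 and TRAP1 had the largest falls of the 10 genes with either compound. HSPD1 stood at 516, 533 and 528 CPM in M5+lefamulin libraries, 556, 555 and 551 CPM in M5+retapamulin libraries, 1029.5, 1009.5 and 1043 CPM in M5 libraries and 877, 867 and 907 CPM in untreated libraries. Every M5+lefamulin and M5+retapamulin library lay below every untreated library, and every untreated library below every M5 library. The log2 change was -0.97 (SE 0.03, adjusted p = 1.30e-19) for lefamulin and -0.89 (SE 0.03, adjusted p = 4.22e-19) for retapamulin against M5 alone, both by edgeR. M5 itself raised HSPD1 against untreated cells (0.22, SE 0.03, adjusted p = 3.28e-07). With either compound the level thus also lay under that of untreated cells, with a log2 difference of -0.75 for M5+lefamulin and -0.67 for M5+retapamulin (adjusted p = 9.65e-18 and 6.80e-17).

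HSPE1, whose product caps the Hsp60 chamber, fell with both compounds too but was not called with M5. HSPE1 was measured at 24.9, 23.8 and 25.3 CPM in M5+lefamulin libraries, 23.1, 22.8 and 23.4 CPM in M5+retapamulin libraries, 40.8, 42.0 and 40.2 CPM in M5 libraries and 37.8, 43.9 and 43.3 CPM in untreated libraries. The 6 compound libraries lay below all others, and the M5 and untreated libraries overlapped. Against M5 alone the log2 change was -0.73 (SE 0.06, adjusted p = 2.95e-11) for lefamulin and -0.83 (SE 0.06, adjusted p = 2.54e-12) for retapamulin. Between M5 and untreated cells it was -0.02 (95% interval -0.14 to 0.09, adjusted p = 0.717). HSPE1 overlaps the annotated read-through gene HSPE1-MOB4, for which the deposited counts hold no value. MOB4 itself held 0 to 2 counts in every library, and whether reads of HSPE1 were lost to this overlap was not tested. HSPD1 and HSPE1 also have processed pseudogene copies, so the absolute levels of both are uncertain.

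HSPA9, the matrix Hsp70 that also drives the import motor, showed the smallest fall of the 5 chaperone genes. HSPA9 reached 317, 339.8 and 339.9 CPM in M5+lefamulin libraries, 377, 365 and 364 CPM in M5+retapamulin libraries, 464, 439 and 463 CPM in M5 libraries and 395, 383 and 398 CPM in untreated libraries. The 4 groups did not overlap and ran, from high to low, M5, untreated, M5+retapamulin and M5+lefamulin. Its log2 change against M5 alone was -0.45 (SE 0.03, adjusted p = 1.36e-11) with lefamulin and -0.30 (SE 0.03, adjusted p = 1.46e-08) with retapamulin. M5 cells exceeded untreated cells by 0.22 (SE 0.03, adjusted p = 6.23e-06). The step between M5+retapamulin and untreated cells was small with TMM scaling, at -0.09 (adjusted p = 0.0202). It was not called with RLE size factors, with DESeq2, without the filter on low counts or in a fit of these 2 groups alone. Nor was it called without untreated replicate 3, M5+retapamulin replicate 2 or M5+retapamulin replicate 3. On library totals the step was -0.34 (adjusted p = 9.37e-10, edgeR), so its size depends on the scaling.

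DNAJA3 encodes a J-protein that stimulates the ATPase of mortalin. DNAJA3 was at 48.4, 49.8 and 49.1 CPM in M5+lefamulin libraries, 46.4, 47.7 and 48.7 CPM in M5+retapamulin libraries, 68.6, 69.6 and 69.3 CPM in M5 libraries and 69.0, 72.3 and 66.4 CPM in untreated libraries. The compound libraries formed one band and the M5 and untreated libraries another, with a gap between them and overlap within each. Against M5 alone DNAJA3 changed by -0.49 (SE 0.04, adjusted p = 1.46e-10) with lefamulin and by -0.54 (SE 0.04, adjusted p = 2.46e-11) with retapamulin (log2, edgeR). M5 and untreated cells differed by -0.00 (95% interval -0.08 to 0.08, adjusted p = 0.982).

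TRAP1, a mitochondrial Hsp90 that binds respiratory chain proteins, had the largest estimated fall of the 10 genes with either compound. With lefamulin its order against HSPD1 was not resolved. With single libraries left out, the change there ran from -1.02 to -0.93 for TRAP1 and from -0.98 to -0.96 for HSPD1. TRAP1 measured 99.1, 89.8 and 102 CPM in M5+lefamulin libraries, 90.6, 90.2 and 93.6 CPM in M5+retapamulin libraries, 194, 189.5 and 191 CPM in M5 libraries and 172, 179 and 175 CPM in untreated libraries. All 6 compound libraries lay below the lowest untreated library, and all M5 libraries above the highest. The log2 change was -0.98 (SE 0.04, adjusted p = 1.97e-16) with lefamulin and -1.07 (SE 0.04, adjusted p = 2.77e-17) with retapamulin. With M5 alone the rise over untreated cells was 0.13 (adjusted p = 0.0091), but 0.01 (adjusted p = 0.879) when libraries were scaled to their totals alone. TRAP1 overlaps DNASE1, which held 269 to 654 counts per library; strandedness is not stated, so shared reads cannot be told apart.

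LONP1, the ATP-dependent Lon protease that clears oxidised matrix proteins, had the largest rise of the 10 genes with M5. LONP1 lay at 142, 135 and 140.1 CPM in M5+lefamulin libraries, 150.4, 149 and 156 CPM in M5+retapamulin libraries, 135, 124 and 125 CPM in M5 libraries and 90.4, 95.9 and 90.1 CPM in untreated libraries. Untreated libraries were the lowest and M5+retapamulin libraries the highest, while the M5 and M5+lefamulin libraries overlapped. M5 raised LONP1 over untreated cells by 0.47 (SE 0.04, adjusted p = 3.36e-10). On top of M5, retapamulin added 0.25 (SE 0.04, adjusted p = 5.42e-06). Lefamulin added 0.12 (SE 0.04, adjusted p = 0.0117), a call lost on library totals (0.07, adjusted p = 0.113) and without M5 replicate 2, M5 replicate 3 or M5+lefamulin replicate 1. LONP1 overlaps the ribosomal protein gene RPL36, whose counts per library were 8132 to 11915. RPL36 was at 248 ± 14.3 CPM in M5+lefamulin cells, 250.2 ± 7.31 CPM in M5+retapamulin cells, 294 ± 12.6 CPM in M5 cells and 291 ± 16.5 CPM in untreated cells (SD, n = 3 each), lower with the compounds where LONP1 was higher. The part of reads shared by both genes in these values was not tested.

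CLPP is the proteolytic chamber of the ClpXP protease and CLPX the ATPase that unfolds and feeds its substrates. CLPP was found at 69.0, 67.9 and 69.7 CPM in M5+lefamulin libraries, 68.9, 68.0 and 69.1 CPM in M5+retapamulin libraries, 75.9, 76.7 and 72.9 CPM in M5 libraries and 60.3, 66.1 and 60.8 CPM in untreated libraries. M5 libraries were the highest and did not overlap with any other group, and the 6 compound libraries lay between 67.9 and 69.7 CPM. CLPP rose by 0.27 (SE 0.04, adjusted p = 5.29e-06) with M5 against untreated cells, and with either compound it was lower than with M5 alone, at -0.13 (SE 0.04, adjusted p = 0.00874) for lefamulin and -0.13 (SE 0.04, adjusted p = 0.00645) for retapamulin. Both compound groups were above untreated cells, by 0.14 and 0.14 (adjusted p = 0.00354 and 0.00445), but on library totals the difference was -0.02 (adjusted p = 0.621) for lefamulin and -0.12 (adjusted p = 0.0136) for retapamulin, the second a call in the opposite direction.

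CLPX, like CLPP, was highest with M5 alone. CLPX stood at 70.2, 71.9 and 72.1 CPM in M5+lefamulin libraries, 66.8, 63.3 and 64.4 CPM in M5+retapamulin libraries, 80.6, 87.8 and 88.7 CPM in M5 libraries and 69.3, 69.5 and 67.2 CPM in untreated libraries. M5 libraries were above all others, and untreated libraries lay between those of the compound groups. The rise with M5 was 0.32 (SE 0.04, adjusted p = 4.13e-07). Against M5 alone the log2 change of CLPX was -0.26 with lefamulin and -0.40 with retapamulin (SE 0.04 each, adjusted p = 4.56e-06 and 4.98e-09). Neither compound group was called against untreated cells: the log2 difference was 0.06 with lefamulin (95% interval -0.03 to 0.14) and -0.08 with retapamulin (95% interval -0.17 to 0.00), but on library totals CLPX was called lower with both, at -0.11 for lefamulin (adjusted p = 0.0238) and -0.34 (adjusted p = 1.58e-07) for retapamulin.

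YME1L1 encodes the ATP-dependent protease of the inner membrane that cuts OPA1 and import proteins. YME1L1 was at 329.5, 346 and 338 CPM in M5+lefamulin libraries, 342, 338 and 334 CPM in M5+retapamulin libraries, 309, 312 and 324 CPM in M5 libraries and 264, 262 and 264 CPM in untreated libraries. Untreated libraries were the lowest, M5 libraries next, and the compound libraries highest, with no overlap between those 3 bands. M5 raised it by 0.26 (SE 0.03, adjusted p = 9.29e-08), and each compound was 0.10 higher than M5 alone (SE 0.03 each, adjusted p = 0.00515 for lefamulin and 0.0047 for retapamulin). Those last 2 differences were 0.05 and -0.03 on library totals, so their direction with retapamulin depends on the scaling.

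HTRA2, a serine protease that binds inhibitor of apoptosis proteins once it leaves the mitochondrion, had small differences between groups. HTRA2 was at 23.0, 21.4 and 24.4 CPM in M5+lefamulin libraries, 21.3, 22.9 and 20.8 CPM in M5+retapamulin libraries, 20.2, 21.2 and 19.8 CPM in M5 libraries and 18.7, 19.0 and 18.2 CPM in untreated libraries. The values climbed in small steps that overlapped between the compound groups and, with retapamulin, with M5 alone. Only lefamulin against M5 alone was called among the comparisons with M5 (0.17, SE 0.06, adjusted p = 0.0228), and that call was lost without the filter on low counts, on library totals, and without M5 replicate 1, M5 replicate 3, M5+lefamulin replicate 1 or M5+lefamulin replicate 3. For retapamulin the difference was 0.09 (adjusted p = 0.227) and for M5 against untreated cells 0.13 (adjusted p = 0.0998). HTRA2 overlaps AUP1 (3262 to 4398 counts per library) and LOXL3 (79 to 213), so its counts are uncertain as well; AUP1 was at 113 ± 2.61 CPM in M5+lefamulin cells, 119 ± 6.55 CPM in M5+retapamulin cells, 112 ± 4.99 CPM in M5 cells and 87.0 ± 3.42 CPM in untreated cells (SD, n = 3 each).

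The compounds, both given with M5, were also compared directly, at doses and times that the labels do not state. Of the 10 genes 4 were called, 1 higher and 3 lower with lefamulin than with retapamulin, where 18.8% of all genes tested were called higher, 21.2% lower and 40.0% either way. Libraries of the compounds did not overlap for 5 of the 10 genes, beside 52.0% of all genes. HSPA9 (-0.15, SE 0.03, adjusted p = 0.00101), LONP1 (-0.13, SE 0.04, adjusted p = 0.0115) and HSPD1 (-0.08, SE 0.03, adjusted p = 0.0301) were lower with lefamulin, and CLPX (0.14, SE 0.04, adjusted p = 0.011) was higher. The largest of these differences in size was -0.15 on the log2 scale, and all 4 calls depended on the scaling or on single libraries. On library totals HSPD1 turned to 0.01, HSPA9 and LONP1 were not called, and 6 genes were called higher with lefamulin and none lower. On that scale 6096 of all genes tested were called, 72.8% of them higher with lefamulin. The CLPX call was lost with RLE size factors, with DESeq2 and without M5+retapamulin replicate 2. The count of called genes among the 10 was 2 without M5+retapamulin replicate 2 and 2 without M5+retapamulin replicate 3. In these 2 settings 4787 of 14477 and 4805 of 14479 genes tested were called, beside 5689 of 14207 with all libraries. For the 6 genes not called, the 95% intervals of the log2 difference were -0.02 to 0.22 for HSPE1, -0.04 to 0.13 for DNAJA3, 0.00 to 0.17 for TRAP1, -0.08 to 0.09 for CLPP, -0.06 to 0.06 for YME1L1 and -0.05 to 0.22 for HTRA2.

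Set against untreated cells, each compound with M5 gave 9 called genes, 4 higher and 5 lower, where 36.9% of all genes were called higher, 37.1% lower and 74.0% either way for M5+lefamulin, and 37.6% higher, 40.9% lower and 78.5% either way for M5+retapamulin. The 5 lower genes were the 5 chaperone genes in both comparisons, and the 4 higher ones were the proteases LONP1, CLPP, YME1L1 and HTRA2. LONP1 had the largest difference upward, 0.59 for M5+lefamulin and 0.72 for M5+retapamulin, and TRAP1 the largest downward, -0.85 and -0.94. YME1L1 was 0.36 higher in both (adjusted p = 1.10e-10 for M5+lefamulin and 9.30e-11 for M5+retapamulin). For all 10 genes the libraries of the groups compared did not overlap, beside 76.1% of all genes for M5+lefamulin and 79.2% for M5+retapamulin. On library totals 2 genes, LONP1 and YME1L1, were called higher in each comparison, and 6 were called lower for M5+lefamulin and 7 for M5+retapamulin. Of all genes tested, 10881 were called on that scale for M5+lefamulin, 38.6% of them higher. For M5+retapamulin 11548 were called, 33.7% of them higher. On that scale CLPP was called lower for M5+retapamulin (-0.12, adjusted p = 0.0136), against the direction of the call above, and HTRA2 was not called in either comparison. These comparisons share the untreated libraries.

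Ratios of 2 genes within a library do not depend on how libraries are scaled. The ratio of LONP1 to HSPD1 (FPKM) was 0.189, 0.174 and 0.182 in M5+lefamulin libraries, 0.186, 0.185 and 0.195 in M5+retapamulin libraries, 0.0900, 0.0847 and 0.0821 in M5 libraries and 0.0709, 0.0759 and 0.0682 in untreated libraries. Relative to Hsp60, transcripts of the Lon protease were thus highest in the 6 compound libraries, with no overlap with M5 libraries, and M5 libraries lay above all untreated ones. The ratio of TRAP1 to HSPA9 was 0.602, 0.509 and 0.581 in M5+lefamulin libraries, 0.462, 0.476 and 0.495 in M5+retapamulin libraries, 0.805, 0.832 and 0.793 in M5 libraries and 0.838, 0.901 and 0.848 in untreated libraries. Here the compound libraries were lowest, so the Hsp90 member lost more than the Hsp70 member. Within ClpXP, CLPX over CLPP averaged 0.529 ± 0.0104 in M5+lefamulin cells, 0.482 ± 0.0110 in M5+retapamulin cells, 0.582 ± 0.0394 in M5 cells and 0.562 ± 0.0245 in untreated cells (SD, n = 3 each). The lid to chamber ratio, HSPE1 over HSPD1, averaged 0.199 ± 0.00845 in M5+lefamulin cells, 0.176 ± 0.00301 in M5+retapamulin cells, 0.169 ± 0.00657 in M5 cells and 0.200 ± 0.0160 in untreated cells. For this ratio the M5 libraries lay below all M5+lefamulin and all untreated libraries and overlapped with the M5+retapamulin ones. The absolute levels of HSPE1 and HSPD1 are uncertain, so this ratio describes the deposited values and may not give the true proportion of their transcripts. With 3 libraries against 3, an exact two-sided permutation test of a single ratio cannot go below p = 0.1, so the ratios are given as values with no test.

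**Figure D4:**
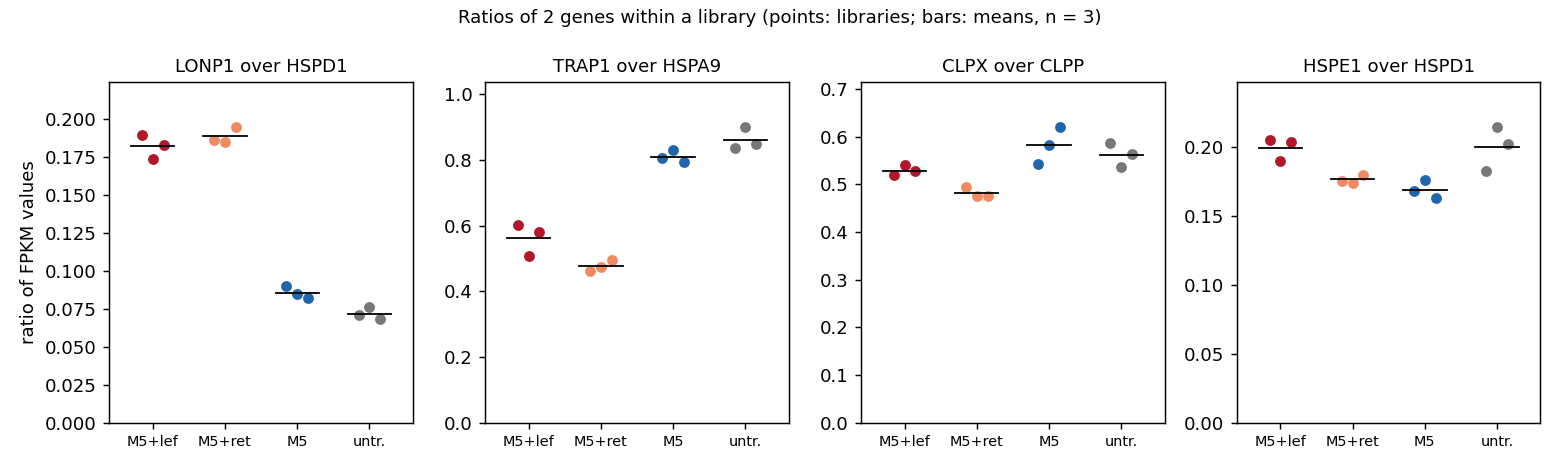
Ratios of deposited FPKM within each library for 4 pairs of genes, with points for libraries and bars for the means of 3; M5+lef, M5+ret and untr. stand for M5+lefamulin, M5+retapamulin and untreated, and axes are linear from 0. LONP1 over HSPD1 is near 0.18 to 0.19 with the compounds and under 0.1 without them, while TRAP1 over HSPA9 is lowest with the compounds.

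Other genes of mitochondrial protein handling were counted in 5 lists, which were chosen with earlier results of these data known and are described without a test of the list. The counts in this and the following paragraphs are to be read beside the shares of all genes tested. Against M5 alone, 34.3% were called lower and 33.6% higher with lefamulin, and 38.0% lower and 34.1% higher with retapamulin. With M5 against untreated cells 28.3% were called higher and 26.9% lower. Of 14 tested co-chaperones and further chaperones (PAM16, the fifteenth, did not pass the filter on low counts), 11 were lower and 1 higher with each compound than with M5 alone, with a median log2 change of -0.46 for lefamulin and -0.47 for retapamulin. The gene that rose was GRPEL2, a nucleotide exchange factor of mortalin (0.80, SE 0.05 for lefamulin and 1.14, SE 0.04 for retapamulin). CHCHD4, which oxidises imported proteins in the intermembrane space, was lower with both (-0.86 for lefamulin and -1.04 for retapamulin), and so was BCS1L, an assembly chaperone of complex III (-0.77 and -0.82). With M5 against untreated cells 6 of the 14 were higher and 3 lower, with a median of 0.04 that turned to -0.08 on library totals; the paralogue GRPEL1 rose (0.61, SE 0.04) and DNAJC15 fell (-0.59, SE 0.11).

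Import channels moved in 1 direction with the compounds. Of 15 TOM and TIM subunits, 14 were lower and none higher with lefamulin, and 14 were lower and none higher with retapamulin, with medians of -0.53 and -0.55. TOMM40, the pore of the outer membrane, was at 143 ± 3.89 CPM in M5+lefamulin cells, 132 ± 1.45 CPM in M5+retapamulin cells and 246 ± 6.01 CPM in M5 cells (SD, n = 3 each). TIMM21, a subunit of the inner membrane translocase, was lower with lefamulin (-0.83) and with retapamulin (-0.79). With M5 against untreated cells 5 were higher and 1 lower, with a median of 0.06 that turned to -0.06 on library totals; TIMM17A (0.34, SE 0.04) and TOMM40 (0.30, SE 0.03) rose and TOMM7 fell (-0.26, SE 0.05).

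Among 17 further proteases, processing peptidases and scaffolds, 12 were lower and 2 higher with lefamulin, and 14 were lower and 2 higher with retapamulin, with medians of -0.34 and -0.54. The 2 that rose were PITRM1 and LACTB. PITRM1, which degrades cleaved presequences, rose by 0.34 (SE 0.03) with lefamulin and by 0.16 (SE 0.03) with retapamulin, and LACTB by 0.26 (SE 0.05) and 0.61 (SE 0.05); on library totals 1 of the 17 was higher with retapamulin. PHB2, a prohibitin that scaffolds inner membrane proteases, was lower with lefamulin (-0.66, SE 0.03) and with retapamulin (-0.61, SE 0.03), as was METAP1D (-0.59, SE 0.16 for lefamulin and -1.24, SE 0.17 for retapamulin). The metalloprotease ATP23 was lower with retapamulin (-1.23, SE 0.14), while the lefamulin value was not called (-0.15, SE 0.13, adjusted p = 0.314). With M5 against untreated cells 5 were higher and 6 lower (2 and 11 on library totals), among the lower ones OMA1, the stress-activated protease of the inner membrane (-1.07, SE 0.13).

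Regulators of the mitochondrial unfolded protein response had medians above 0 with the compounds. Of 10 such genes, 6 were higher and 2 lower with lefamulin, and 5 higher and 2 lower with retapamulin, with medians of 0.24 and 0.22; on library totals 6 were higher and 2 lower with lefamulin (median 0.19), and 5 higher and 4 lower with retapamulin (median 0.08). ATF4, the transcription factor of the integrated stress response, was at 486 ± 0.828 CPM in M5+lefamulin cells, 557 ± 5.02 CPM in M5+retapamulin cells and 272 ± 6.63 CPM in M5 cells (SD, n = 3 each). Its log2 change was 0.84 (SE 0.03) with lefamulin and 1.04 (SE 0.03) with retapamulin, and that of DDIT3 was 1.03 (SE 0.06) and 1.27 (SE 0.06). ATF5, the factor whose import into mitochondria is monitored in this response, was lower with both (-0.53, SE 0.05 and -0.75, SE 0.05), as was the deacetylase SIRT3 (-0.26, SE 0.10 and -0.71, SE 0.10). The chaperone genes were thus lower in the same libraries in which ATF4 and DDIT3 were higher. M5 against untreated cells raised 5 of the 10 and lowered 2, with a median of 0.12 that turned to -0.00 on library totals; CEBPB rose most (2.21, SE 0.05) and ATF5 rose (0.49, SE 0.05).

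Of 13 substrates and partners of the proteases, 8 were lower and 3 higher with lefamulin, and 8 lower and 5 higher with retapamulin, with medians of -0.25 and -0.28. PINK1, a kinase that the protease system normally keeps scarce as a protein, rose by 1.05 (SE 0.04) with lefamulin and 1.09 (SE 0.04) with retapamulin at the RNA level. ALAS1, the first enzyme of haem synthesis and a LONP1 substrate, rose with lefamulin (0.42, SE 0.04) and with retapamulin (0.51, SE 0.04), and so did XIAP, a caspase inhibitor that HTRA2 binds (0.29, SE 0.05 for lefamulin and 0.56, SE 0.05 for retapamulin). Citrate synthase (CS) fell with both (-0.84, SE 0.03 and -0.41, SE 0.03), as did the mitochondrial phosphatase PGAM5 (-0.71, SE 0.04 and -0.90, SE 0.04). Against untreated cells M5 raised 8 and lowered 2 of the 13 (5 and 4 on library totals), led by the inhibitor of apoptosis genes BIRC3 (2.52, SE 0.06) and BIRC2 (0.86, SE 0.04).

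A further pair of lists was added after these values had been seen. Their counts are to be read beside the same shares of all genes tested as those of the other lists. Of 78 mitochondrial ribosomal protein genes, 70 were lower and 3 higher with lefamulin, and 69 lower and 2 higher with retapamulin, with medians of -0.41 and -0.55. Of 14 cytosolic heat shock genes, 11 were lower and 2 higher with lefamulin, and 11 lower and 3 higher with retapamulin, with medians of -0.32 and -0.27. The fall of the 5 mitochondrial chaperone genes thus went along with lower transcripts of most genes in both of these lists. With M5 against untreated cells 11 of the 78 ribosomal genes were higher and 20 lower, and 9 of the 14 cytosolic genes were higher and 3 lower; on library totals these counts were 4 and 43, and 4 and 5.

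**Figure D5:**
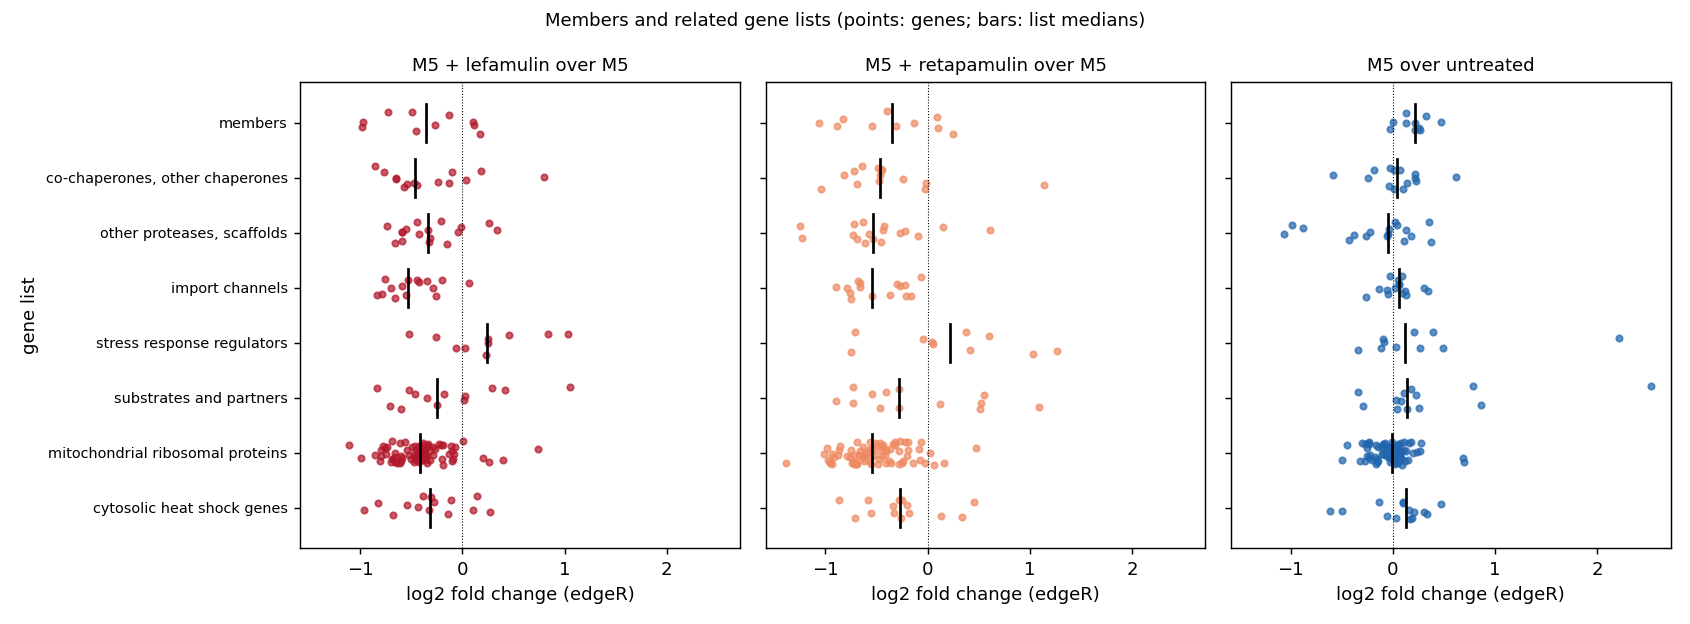
Log2 fold changes (edgeR) of the 10 members and of the 7 related gene lists, with points for genes and bars for list medians, in M5+lefamulin over M5, M5+retapamulin over M5 and M5 over untreated cells. With either compound the medians lie below 0 for the members and for 6 of the lists and above 0 for the stress response regulators.

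To describe which genes had the most similar pattern, each of 10218 other tested genes with a mean of at least 5 CPM was compared with each of the 10 genes by the root mean square difference of their centred log2 levels over the 4 group means. TRAP1 was the 57th and HSPE1 the 93rd nearest gene to HSPD1, at 0.10 and 0.11 log2 units, and the nearest were BEND3, CDK5R1 and PHETA1, at 0.02 to 0.04. The second nearest gene to HSPE1 was BCS1L, at 0.02, after RNF166. LONP1 was closest to ATP6V0C at 0.01, and of the other members YME1L1 came nearest to it, at rank 698. ACTR8 lay nearest to YME1L1, POLR2H to CLPP, RNF215 to CLPX, MED25 to HTRA2, PPP1CC to DNAJA3, IQCB1 to HSPA9 and ISOC2 to TRAP1. With only 4 group means a close match is easily reached among so many genes.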

How the data were processed

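RNA sequencing libraries of HaCaT cells, 3 per group in 4 groups, were read from 2 tables deposited by the authors. One holds whole-number counts for 22545 gene symbols with no normalization, and the other FPKM of the same genes and libraries. Per the submitters' processing notes, HISAT2 and HTSeq were used; the sources used here give no version, genome build or strandedness. For 14577 genes checked, the deposited FPKM equalled the count over a fixed gene length and the column total (largest coefficient of variation 4.44e-08), so FPKM carries no scaling for composition. Such scaling sets small differences: on library totals the median log2 change of all genes was -0.14 for M5 against untreated cells, -0.19 for M5+retapamulin against M5 and -0.31 for M5+retapamulin against untreated cells, beside -0.02, -0.05 and -0.06 with TMM.

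The counts went into edgeR 4.0.16, run under R 4.3.3. Its filterByExpr left 14207 genes tested and 8338 not tested. TMM-scaled libraries were fitted together with 1 mean per group, without a replicate block, since the labels tie a number to no shared culture. Each comparison used the quasi-likelihood test with Benjamini-Hochberg adjustment over all genes tested; the median SE of a log2 change was 0.07 for M5 against untreated cells. The same code was run on simulated counts in which few genes changed, equally up and down and in the M5 group alone. That setting holds no shift of composition, so it does not test the choice of scaling here. Levels of single genes are CPM on TMM-scaled totals. Alternatives were RLE size factors, library totals, DESeq2 1.42.0, fits of 2 groups, other filters, a replicate block, limma 3.58.1 on log2 FPKM with pseudocounts of 1 and 0.1, and leaving out each library. No pair of replicates agreed within sampling noise (chi-square over degrees of freedom 2.72 to 8.37).

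All 10 members are named in each comparison, and of each related list the called genes that rose most and fell most, up to 2 in each direction; not all are printed. A gene nearest to a member was ranked over the group means. The members and lists were chosen with earlier results of these data known. RefSeq was used for gene overlaps and promoter windows, and its gene coordinates were not joined to the counts. TYR, one of the melanocyte markers, is not analysed here.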

Additional observations from a re-analysis of the deposited data

How the results depend on the processing

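Of 60 results (10 genes in 6 comparisons), 35 kept their direction and side of the threshold under all 21 alternatives, as did 1142 of 1260 single values. The falls of HSPD1, HSPE1, HSPA9, DNAJA3, TRAP1, CLPP and CLPX with each compound against M5 alone were among these 35. DNAJA3 in M5 against untreated cells turned to 0.0069 with RLE size factors, 0.0069 with DESeq2, 0.016 without the low-count filter and 0.0070 in a fit of 2 groups. CLPP in lefamulin against retapamulin was -0.030 with RLE size factors, -0.030 with DESeq2 and -0.00203 without that filter. On library totals, FPKM + 1 and FPKM + 0.1, retapamulin against M5 gave -0.035, -0.034 and -0.035 for YME1L1 and -0.047, -0.042 and -0.047 for HTRA2. On the same 3 scales lefamulin against retapamulin gave 0.012, 0.012 and 0.012 for HSPD1 and 0.089, 0.087 and 0.089 for YME1L1, which was also 0.0068 with the CPM filter and 0.010 with 2 groups. There M5+lefamulin against untreated cells gave -0.023, -0.022 and -0.022 for CLPP and -0.11, -0.10 and -0.11 for CLPX, and M5+retapamulin against untreated cells -0.12, -0.11 and -0.12 for CLPP and -0.037, -0.034 and -0.038 for HTRA2. With single libraries left out, M5 against untreated cells ran from -0.028 to 0.033 for DNAJA3 and from -0.090 to 0.016 for HSPE1, and lefamulin against retapamulin from -0.019 to 0.018 for YME1L1 and from -0.0045 to 0.013 for CLPP. The number of members called between the compounds ran from 2 to 4 (4 with all libraries), being 2 without M5+retapamulin replicate 2 or 3. Over all genes tested, the number called ran from 4787 to 6061 (5689 with all libraries). The cause of these changes was not tested. The share of called genes that were higher moved on library totals to 31.5% (51.3% with TMM) for M5 against untreated cells, 38.6% (49.9%) for M5+lefamulin and 33.7% (47.8%) for M5+retapamulin against untreated cells, and to 72.8% (47.0% with TMM, 36.8% with RLE) for lefamulin against retapamulin. Same-numbered libraries did not deviate together (r from -0.14 to 0.18; 4 of 12 correlated best with their own number), and a replicate block left 7 members called for M5 against untreated cells, 10 for lefamulin against M5, and 7780 and 9578 genes (7839 and 9647 without it).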
